A study of Mus musculus with 9 samples.

Results

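The epithelial junction, claudin and keratin genes of mouse embryonic stem cells were followed as 33 named genes, chosen by their symbols from adherens junctions, tight junctions, desmosomes and keratin filaments, out of 52550 Ensembl genes in the deposited table of exon read counts. All 33 were matched by identifier. The series holds 9 libraries of V6.5 embryonic stem cells, a hybrid mouse line. In the labels, 4 libraries are wildtype (WT) and 5 are KLF2/KLF4 DKO, cells lacking the transcription factors KLF2 and KLF4. All 9 were kept in medium with LIF, 15% FBS and inhibitors against MEK and GSK, the condition that labels call Lif 2i. The labels say neither whether a genotype is 1 clone nor whether replicates were separate cultures, so p-values speak only of the spread among these libraries, and that spread may be technical.

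Epithelial cells are held together by stacked junctions. Cadherins and nectins bind the neighbouring cell in adherens junctions, claudins, occludin and their relatives seal the space between cells in tight junctions, and desmosomal cadherins are tied through plakophilins, plakoglobin and desmoplakin to keratin filaments. Naive embryonic stem cells grow as compact colonies whose contacts rest largely on E-cadherin, and the series title concerns GRHL2, a factor of the Grainyhead family known for activating epithelial genes.

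Library totals lay between 6035642 and 7098530 counts, and a floor of 3 counts in 1 library stood for 0.426 to 0.506 CPM (reads scaled to the size of the library), covering counting error only. Each read marks about 1 fragment near a transcript's 3' end. On the first principal component (69.2% of the variance) the groups separated, and on the next (6.1%) DKO 3 lay at 23.1 and DKO 4 and 5 at -13.5 and -14.0. The targeted genes went against the label: Klf2 stood at 615 CPM in the DKO-labelled libraries against 460 in WT, and Klf4 at 1595 against 848. Which parts were deleted is not stated in the labels, and a 3' read outside them checks nothing, so directions below compare DKO-labelled with WT-labelled libraries. The 7 embryonic stem cell markers (Pou5f1, Sox2, Nanog, Esrrb, Zfp42, Tfcp2l1 and Dppa5a) all had reads. Their summed level was 2413 to 2520 CPM in WT and 3306 to 3491 in the DKO-labelled libraries. They did not move as one, since Zfp42 fell (log2 fold change -0.20, edgeR adjusted p = 0.00318) while most of the others rose. Pou5f1 did not differ at an adjusted p under 0.05 (-0.15, edgeR adjusted p = 0.255). Fibroblast markers, 8 genes of the kind feeder cells express, summed to only 2.64 to 4.40 and 1.15 to 3.76 CPM, with Lum at 0 in every library.

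Junction genes went both ways in the DKO-labelled libraries. P-cadherin (Cdh3), the scaffold Cgnl1, the desmosomal plakophilin Pkp2, Nectin2, the polarity gene Llgl2, desmoglein Dsg2 and, by a small amount, Cldn4 rose, and keratin Krt8, occludin (Ocln), Cldn7, the polarity gene Crb3, E-cadherin (Cdh1), tricellulin (Marveld2) and cingulin (Cgn) fell. That is 7 higher and 7 lower of 28 members with enough reads to be tested, by edgeR's quasi-likelihood test at an adjusted p under 0.05, with 14 that did not pass and 5 not tested. The shares, 25% each way, lay near those of all 11893 genes tested, of which 23.9% were higher and 24% lower (47.8% together, against 50% of the members). The members' median log2 fold change was -0.10, and that of all tested genes was 0.01. Changes of at least 2-fold were 3 of 28 upward (10.7%, against 4.14% of all genes) and 4 of 28 downward (14.3%, against 6.05%). The groups did not overlap for 5 members upward and 7 downward (42.9% together, against 37.4% of all genes tested, 18.4% upward and 19.1% downward).

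**Figure D1:**
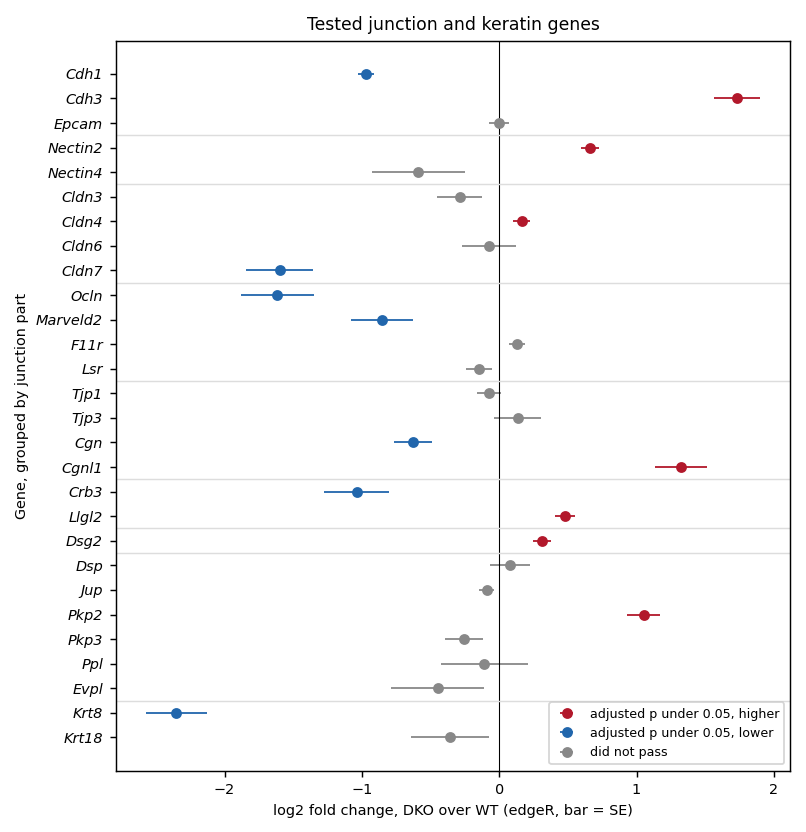
Each point is 1 of the 28 tested members, placed by its log2 fold change, DKO over WT, with a bar for its SE, and grouped from cadherins at the top to keratins at the bottom. Members of 1 junction part often lie on opposite sides of 0, such as Cdh1 (-0.97) and Cdh3 (1.73), Cgn (-0.63) and Cgnl1 (1.33), or Crb3 (-1.04) and Llgl2 (0.48).

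Of the classical cadherins among the members, E-cadherin fell and P-cadherin rose, and their genes are neighbours. Cdh1 (ENSMUSG00000000303, mm10 chromosome 8, 106603351 to 106670246, plus strand) encodes the main calcium-dependent adhesion molecule of epithelia and of embryonic stem cell colonies. It held 17645, 17356, 19317 and 19526 counts in turn in WT 1 to 4, against 7799, 9313, 9376, 8372 and 8741 in DKO 1 to 5. Every DKO-labelled library lay far below every WT library, and DKO 1 was the lowest. The log2 fold change was -0.97, with an SE of 0.06 (edgeR adjusted p = 1.3e-12), a ratio of 0.51. Cdh3 (ENSMUSG00000061048, 106510891 to 106557297 on the same strand) encodes P-cadherin, a cadherin of placenta and of basal epithelial layers, and ends 46.1 kb before Cdh1 begins. It held 32, 42, 34 and 49 counts in turn in WT 1 to 4, against 131, 147, 82, 129 and 118 in DKO 1 to 5. The groups did not overlap, and DKO 3 was the lowest of its group. The level went from 5.79 ± 1.06 to 19.3 ± 3.70 CPM (SD, n = 4 and 5), a log2 fold change of 1.73 with an SE of 0.17 (edgeR adjusted p = 8.1e-11), or 3.32-fold. Per 100 reads of Cdh1 there were 0.176 to 0.251 reads of Cdh3 in WT and 0.875 to 1.68 in the DKO-labelled libraries.

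The stretch of chromosome 8 around both cadherin genes was itself shifted downward. Of 93 other genes tested within 5 Mb of the Cdh1 start, 72 fell and 5 rose, and their median log2 fold change was -0.63. The difference of Cdh1 from that median was -0.34 on the log2 scale, and 15 of the 95 genes tested in the window, the cadherins included, had lower values. Cdh3 had the highest value of the 95 and lay above the median by 2.36 (log2). Marveld3, in the same region, had too few reads to be tested. Over all tested genes of chromosome 8, members excluded, the median log2 fold change was -0.19. The part of this regional shift in the fall of Cdh1 was not tested. For Nectin2, Cldn7, Ocln, Cgn, Cgnl1, Crb3, Llgl2, Dsg2, Pkp2, Cldn4, Marveld2 and Krt8, the other members that passed, the medians over tested neighbours within 5 Mb ran from -0.09 to 0.17. Around Jup on chromosome 11, which did not pass, the median of 168 such neighbours was -0.20.

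**Figure D2:**
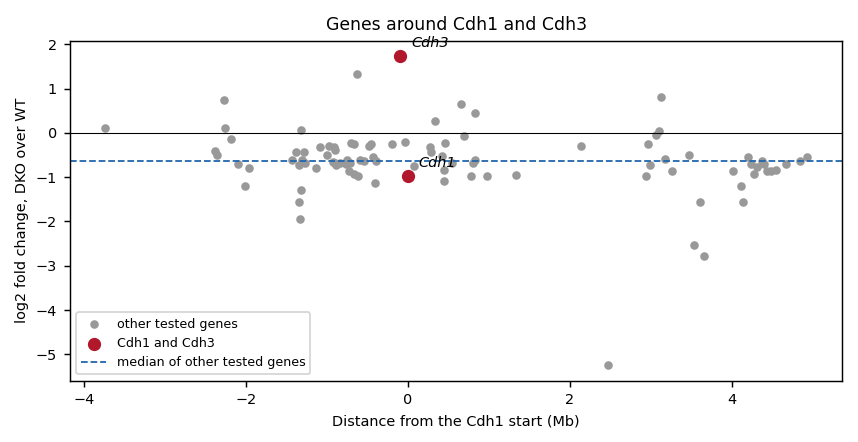
Points are the 95 genes tested within 5 Mb of the start of Cdh1, placed by distance from it in Mb and by log2 fold change, DKO over WT. The dashed line is the median of the 93 genes other than the cadherins, -0.63. Cdh1 lies below the line at -0.97, and Cdh3 is the highest point at 1.73.

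Epcam, which encodes an epithelial adhesion molecule that is also a surface marker of pluripotent cells, did not pass. It held 373, 389, 422 and 381 counts in turn in WT 1 to 4, against 348, 394, 346, 362 and 360 in DKO 1 to 5. The levels overlapped, at 57.8 ± 3.54 and 57.6 ± 3.94 CPM, and the log2 fold change was -0.005 ± 0.073 (SE, edgeR adjusted p = 0.964).

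Of the nectins, immunoglobulin-like adhesion proteins of adherens junctions, Nectin2 rose. It held 687, 602, 632 and 715 counts in turn in WT 1 to 4, against 984, 1052, 799, 985 and 1028 in DKO 1 to 5, with DKO 3 the lowest of its group and still above every WT library. The log2 fold change was 0.66, with an SE of 0.07 (edgeR adjusted p = 2.3e-10). Nectin4 had 10 to 18 counts in WT and 6 to 12 in the DKO-labelled libraries, ranges that overlap, and did not pass (-0.59 ± 0.34, adjusted p = 0.154). Of the nectin genes that are not members, Nectin1 fell (log2 fold change -0.96, SE 0.10) and Nectin3 rose (0.67, SE 0.08, from 35.8 ± 2.85 to 56.8 ± 5.25 CPM).

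The 4 tested claudins, the proteins that set the permeability of tight junctions, differed among themselves. Cldn7 (ENSMUSG00000018569, chromosome 11) held 32, 42, 39 and 58 counts in turn in WT 1 to 4, against 10, 13, 12, 11 and 19 in DKO 1 to 5. The groups did not overlap, and the log2 fold change was -1.60 ± 0.25 (SE, edgeR adjusted p = 1.6e-06). Cldn4 held 1230, 1391, 1318 and 1360 counts in turn in WT 1 to 4, against 1318, 1365, 1241, 1338 and 1624 in DKO 1 to 5, where DKO 5 was the highest. Its levels overlapped, and it rose by 0.16 ± 0.06 (log2, SE, edgeR adjusted p = 0.0305). That call was lost in 8 of 16 alternative fits, among them DESeq2 (adjusted p = 0.0554), without WT 1, 3 or 4 (0.125, 0.0757 and 0.0796) and without DKO 4 or 5 (0.0618 and 0.163), with a range of 0.00652 to 0.405 over all 16. Cldn3, which lies 39.3 kb from Cldn4 on chromosome 5, had 62 to 84 counts in WT and 35 to 72 in the DKO-labelled libraries and did not pass (-0.29 ± 0.17, adjusted p = 0.152). It passed downward with the replicate number added to the fit as a block (-0.38, adjusted p = 0.0479) and without DKO 4 and 5 together (-0.46, adjusted p = 0.0445), while without DKO 3 it was at -0.16 (adjusted p = 0.408, the highest of 16 alternatives). Cldn6, a claudin of early embryonic epithelia, had 46 to 98 and 46 to 74 counts and did not pass either (-0.08 ± 0.19, adjusted p = 0.779). Cldn9, whose gene ends 0.138 kb from that of Cldn6 on the opposite strand, had 0 to 3 counts in each library and was not tested.

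Occludin and tricellulin, membrane proteins of the MARVEL family that sit in tight junction strands and at corners where cells meet, both fell. Their genes lie 43.2 kb apart on chromosome 13. Ocln (ENSMUSG00000021638) held 42, 36, 50 and 34 counts in turn in WT 1 to 4, against 13, 7, 19, 7 and 15 in DKO 1 to 5, so that the highest DKO-labelled library held fewer counts than the lowest WT library. The log2 fold change was -1.62, with an SE of 0.26 (edgeR adjusted p = 4.4e-06). Marveld2 (ENSMUSG00000021636) held 38, 35, 56 and 33 counts in turn in WT 1 to 4, against 24, 25, 20, 17 and 18 in DKO 1 to 5, again without overlap. It fell by 0.85 on the log2 scale (SE 0.22, edgeR adjusted p = 0.00181). The 48 other genes tested within 5 Mb of Marveld2 had a median log2 fold change of 0.03. F11r, the junctional adhesion molecule A, had 767 to 881 counts in WT and 827 to 909 in the DKO-labelled libraries and missed the threshold (0.13 ± 0.06, adjusted p = 0.0612). F11r passed upward without DKO 1 (0.16, adjusted p = 0.0168) and with no TMM scaling (0.14, adjusted p = 0.0495), with a range of 0.0168 to 0.226 over 16 alternatives. Lsr, the angulin that recruits tricellulin to cell corners, had 236 to 298 and 193 to 240 counts and did not pass (-0.15 ± 0.10, adjusted p = 0.223).

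For Ocln and Cldn7, the sequence before the start is shown because both fell by large amounts while the medians of their tested neighbours within 5 Mb were 0.02 and -0.03. Windows of 250 bases before to 50 after annotated starts were taken from RefSeq on GRCm38.p6, the assembly of mm10, where 21 of the 33 members had an entry. They were searched on both strands for a KLF and SP type box (CCNCNCCC), for the E-box bound by SNAI and ZEB repressors (CACCTG) and for a Grainyhead type site (AACCNGTT). Lines run 5' to 3' in the direction of the gene, from chr13:100552719-100552968 (minus strand) and chr11:69964529-69964778 (plus strand), and stop where the first annotated exon begins. Capitals mark matches to the KLF and SP type box, which overlap near the end of the Ocln line.
Ocln: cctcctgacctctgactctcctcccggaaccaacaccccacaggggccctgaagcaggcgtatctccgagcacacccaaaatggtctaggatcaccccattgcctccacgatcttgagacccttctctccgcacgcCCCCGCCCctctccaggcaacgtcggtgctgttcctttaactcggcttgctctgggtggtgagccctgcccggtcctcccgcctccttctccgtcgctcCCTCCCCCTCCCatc
Cldn7: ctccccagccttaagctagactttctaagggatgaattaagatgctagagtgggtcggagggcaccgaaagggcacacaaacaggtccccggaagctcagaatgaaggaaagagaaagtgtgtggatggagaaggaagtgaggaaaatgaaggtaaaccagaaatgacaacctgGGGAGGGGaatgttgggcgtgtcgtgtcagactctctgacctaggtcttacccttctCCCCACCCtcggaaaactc
At least 1 such box stood in the windows of 20 of the 21 members (95.2%, all but Cldn6) and of 51.9% of all 27025 genes in the RefSeq table. The members' windows were richer in G and C, with a median of 61.2% against 52.7%. The box was present in all 6 of the fallen members with a window and all 3 of the risen ones. The E-box stood in 16 of the 21 (76.2%, against 22.6% of all genes), in 5 of the 6 fallen and 2 of the 3 risen. A Grainyhead type site stood in 1 of the 21, Cgn (4.76%, against 2.35%). These are letter matches in short windows, and several genes have more than 1 annotated start. Neither printed line holds an E-box. The full window of the printed Ocln line held 1, past the point where the line stops, and the window of the other Ocln start held 2. For Cldn7, the full window of the printed line held 0 E-boxes. The window of its other start (chr11:69965171-69965470) held 2 E-boxes and 0 KLF and SP type boxes, so the matches depend on the start.

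The scaffolds on the inner face of tight junctions also parted. Cgn, cingulin, which links tight junctions to the actomyosin cortex, held 84, 107, 89 and 115 counts in turn in WT 1 to 4, against 59, 62, 55, 56 and 64 in DKO 1 to 5. It fell without overlap by 0.63 on the log2 scale (SE 0.14, edgeR adjusted p = 0.00031). Cgnl1, its paralogue paracingulin, held 35, 29, 28 and 50 counts in turn in WT 1 to 4, against 64, 86, 64, 93 and 106 in DKO 1 to 5. It rose without overlap, by 1.33 ± 0.19 (log2, SE, edgeR adjusted p = 5.4e-07). Tjp1, which encodes ZO-1, the scaffold that ties claudins to actin, had 266 to 324 and 228 to 288 counts and did not pass (-0.07 ± 0.09, adjusted p = 0.516). Tjp3, the ZO-3 gene, had 37 to 51 and 41 to 52 counts and did not pass (0.14 ± 0.17, adjusted p = 0.542). It shares 40 exon bases with Apba3 on the opposite strand, and the strand setting of the counting is not given in the sources used here.

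Both tested polarity members passed, in opposite directions. Crb3, the Crumbs protein that marks the apical surface of epithelial cells, held 26, 50, 49 and 40 counts in turn in WT 1 to 4, against 22, 15, 23, 19 and 14 in DKO 1 to 5. WT 1, the lowest WT library at 3.89 CPM, lay just above the highest DKO-labelled library, DKO 3 at 3.77 CPM. Crb3 fell by 1.04 on the log2 scale (SE 0.24, edgeR adjusted p = 0.000449). Llgl2, a homologue of the lethal giant larvae protein of the basolateral side, held 535, 541, 718 and 618 counts in turn in WT 1 to 4, against 783, 741, 709, 828 and 826 in DKO 1 to 5. Scaled to library size the groups did not overlap, and Llgl2 rose by 0.48 ± 0.07 (log2, SE, edgeR adjusted p = 3.6e-06).

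**Figure D3:**
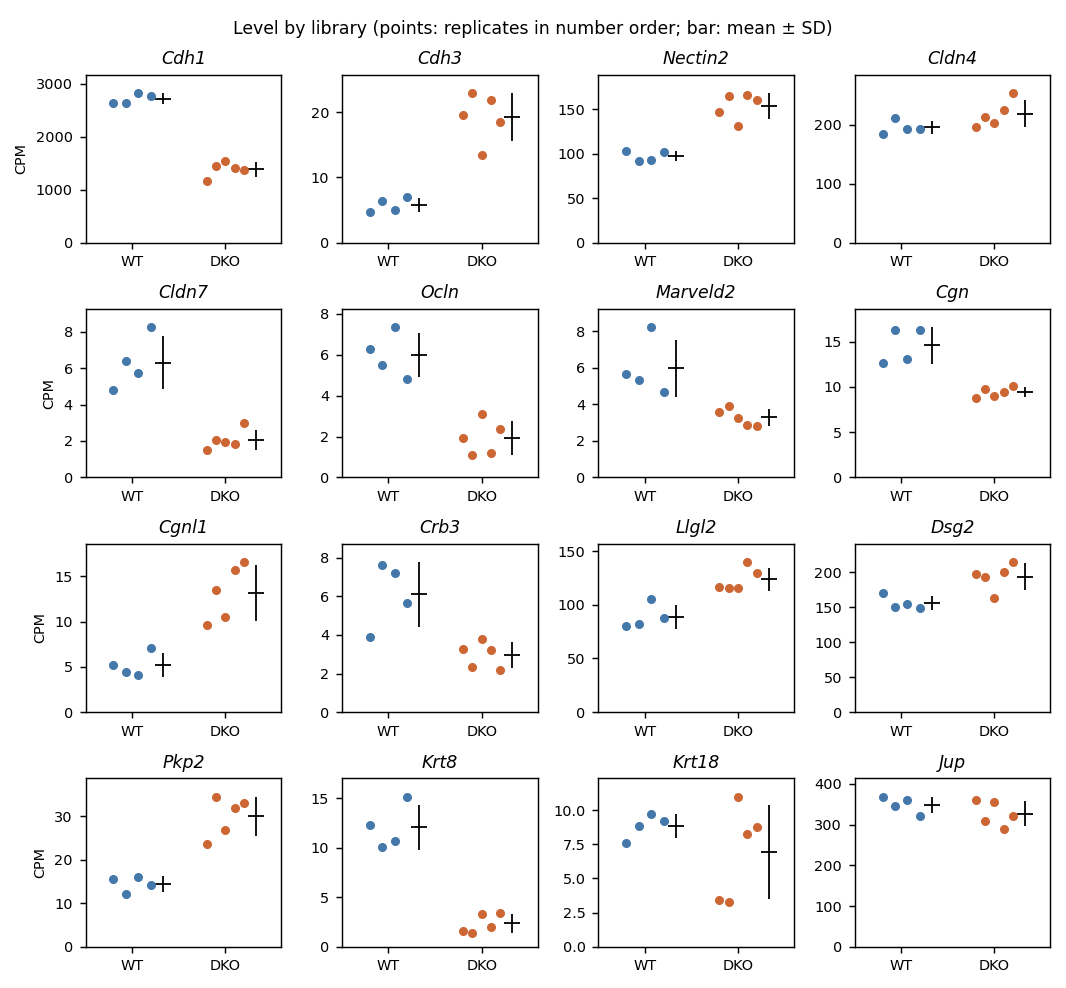
Levels in CPM are shown for 16 members, with 1 point per library, WT in blue and DKO in orange, and the mean ± SD as a black bar. Cdh1, Cldn7, Ocln, Marveld2, Cgn, Crb3 and Krt8 separate downward and Cdh3, Nectin2, Cgnl1, Llgl2 and Pkp2 upward, while Cldn4, Dsg2, Krt18 and Jup overlap between the groups.

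In desmosomes, 2 of 7 tested members passed, both upward, where 47.8% of all genes tested passed and 23.9% did so upward. Pkp2, plakophilin 2, a plaque protein known from heart and simple epithelia, held 104, 79, 108 and 99 counts in turn in WT 1 to 4, against 157, 219, 164, 189 and 210 in DKO 1 to 5. All 5 DKO-labelled libraries lay above all 4 WT libraries, at 29.9 ± 4.56 against 14.4 ± 1.75 CPM (log2 fold change 1.05 ± 0.12, SE, edgeR adjusted p = 5.0e-09). Dsg2, the desmoglein of simple epithelia, held 1143, 988, 1057 and 1052 counts in turn in WT 1 to 4, against 1319, 1236, 995, 1193 and 1372 in DKO 1 to 5. DKO 3, at 163 CPM, lay below WT 1 at 171 CPM, so the groups overlapped, and Dsg2 rose by 0.31 ± 0.06 (log2, SE, edgeR adjusted p = 0.00012). Jup, plakoglobin, which is shared between desmosomes and adherens junctions, had 2258 to 2453 counts in WT and 1712 to 2409 in the DKO-labelled libraries and did not pass (-0.09 ± 0.06, adjusted p = 0.189). There were 7.19 to 8.65 reads of Cdh1 per read of Jup in WT and 3.24 to 4.89 in the DKO-labelled libraries.

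The other plaque genes did not pass. Dsp, desmoplakin, the link to keratin, had 91 to 144 counts in WT and 77 to 123 in the DKO-labelled libraries (0.08 ± 0.15, adjusted p = 0.682). Pkp3, plakophilin 3, had 115 to 181 and 82 to 122 counts (-0.26 ± 0.14, adjusted p = 0.131). Without WT 4 it passed downward (-0.35, adjusted p = 0.0464, with a range of 0.0464 to 0.599 over 16 alternatives). Of the plakins, which extend the plaque, Ppl had 11 to 15 counts in WT and 8 to 16 in the DKO-labelled libraries. Evpl had 13 to 21 counts in WT, but 9, 6 and 6 in DKO 1 to 3 and 16 and 19 in DKO 4 and 5. Their log2 fold changes were -0.11 ± 0.32 and -0.45 ± 0.34 (adjusted p = 0.804 and 0.290), and Evpl passed downward when DKO 4 and 5 were left out together (-1.14, adjusted p = 0.0184, with a range of 0.0184 to 0.544 over 15 alternatives).

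Krt8 and Krt18 encode the type II and type I keratins that pair into the filaments of simple epithelia, and their genes stand 23.7 kb apart on chromosome 15. Krt8 (ENSMUSG00000049382, 101996698 to 102004482, minus strand) held 82, 66, 73 and 107 counts in turn in WT 1 to 4, against 11, 9, 20, 12 and 22 in DKO 1 to 5. The groups were far apart, at 12.1 ± 2.28 and 2.36 ± 0.95 CPM, and its log2 fold change of -2.35 with an SE of 0.22 (edgeR adjusted p = 5.3e-11) was the lowest of the 28 tested members. Krt18 (ENSMUSG00000023043, 102028180 to 102032027, plus strand) held 51, 58, 66 and 65 counts in turn in WT 1 to 4, against 23, 21, 67, 49 and 56 in DKO 1 to 5. Scaled to library size, DKO 1 and 2 lay below every WT library (3.44 and 3.29 CPM against 7.63 to 9.70), DKO 4 and 5 lay within the WT range and DKO 3 above it. Krt18 did not pass (-0.36 ± 0.29, adjusted p = 0.330), but passed downward without DKO 3 (-0.58, adjusted p = 0.0430) and with the replicate block (-0.51, adjusted p = 0.0496). Without DKO 1 or without DKO 2 its value was -0.18 (adjusted p = 0.549 and 0.552), and the adjusted p ranged from 0.0430 to 0.552 over 16 alternatives. Reads of Krt8 per read of Krt18 were 1.61, 1.14, 1.11 and 1.65 across WT 1 to 4, against 0.478, 0.429, 0.299, 0.245 and 0.393 across DKO 1 to 5. The ratio therefore separated the groups, also in DKO 3, 4 and 5, where Krt18 was not below WT.

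**Figure D4:**
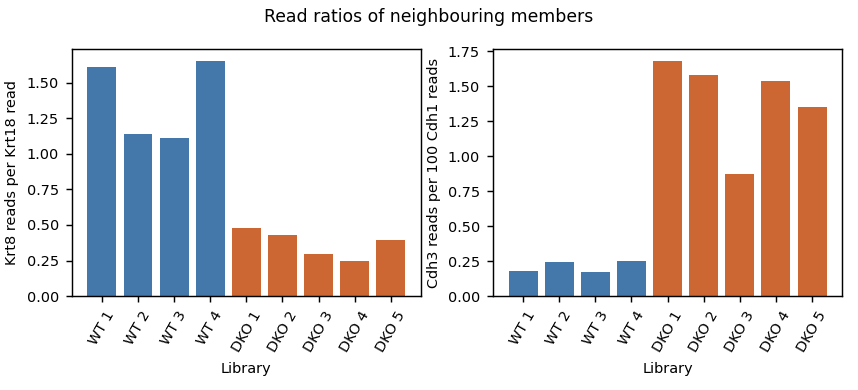
Bars give, for each library, the reads of Krt8 per read of Krt18 (left) and the reads of Cdh3 per 100 reads of Cdh1 (right), with WT in blue and DKO in orange. The left ratio is 1.11 to 1.65 in WT and 0.245 to 0.478 in DKO, and the right ratio is 0.176 to 0.251 and 0.875 to 1.68, with DKO 3 the lowest of its group on the right.

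The stretches before the starts of both keratin genes are shown because the pair moved apart. They are chr15:102004483-102004592 (minus strand) and chr15:102027966-102028179 (plus strand) of the same RefSeq windows, up to the first annotated exon. Capitals mark the KLF and SP type box in both lines and, near the beginning of the Krt18 line, the E-box.
Krt8: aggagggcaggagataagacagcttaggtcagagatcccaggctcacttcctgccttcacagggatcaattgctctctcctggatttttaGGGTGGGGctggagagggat
Krt18: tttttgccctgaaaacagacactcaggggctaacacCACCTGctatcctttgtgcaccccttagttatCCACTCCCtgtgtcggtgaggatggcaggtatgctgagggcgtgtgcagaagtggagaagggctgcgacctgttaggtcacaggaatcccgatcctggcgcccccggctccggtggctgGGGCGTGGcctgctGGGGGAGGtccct
The Krt8 stretch of 110 bases held 1 KLF and SP type match, and the Krt18 stretch of 214 bases held 3 and 1 E-box. The full Krt8 window also held 1 E-box, past the point where the first annotated exon begins, so both genes carried both motifs.

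Simple keratins are also markers of trophectoderm, the outer epithelium of the blastocyst. The summed level of 6 trophectoderm markers (Cdx2, Gata3, Elf5, Tfap2a, Hand1 and Krt7) was 32.5 to 36.3 CPM in WT and 9.12 to 12.3 in the DKO-labelled libraries. In WT most of this sum was Tfap2a, with a mean of 26.3 CPM against 4.35 in the DKO-labelled libraries. Tfap2c, given below among the epithelial genes, was not part of the sum. It went the other way, averaging 66.3 CPM in WT and 260 in the DKO-labelled libraries, so the direction of the sum depends on which genes are listed. The 6 markers in the sum did not move as one. Tfap2a, with 711 reads in WT and 137 in the DKO-labelled libraries, and Gata3, with 197 and 122, both fell (log2 fold changes -2.59 and -0.90, edgeR adjusted p = 5.7e-16 and 0.000699). The other 4 were too low to be tested, with 4 and 38 reads of Krt7, itself one of the keratin members, 21 and 31 of Cdx2, 3 and 5 of Hand1 and 1 and 1 of Elf5. The summed level of 6 primitive endoderm markers was 2.50 to 3.55 and 4.10 to 5.53 CPM. Sox7, with 4 and 94 reads, was the only one tested and rose (log2 fold change 4.17, edgeR adjusted p = 1.7e-08), while Sox17 had 28 and 4, Gata4 19 and 11, Gata6 7 and 3, Foxa2 10 and 26 and Pdgfra 9 and 10. Of 5 markers of stratified surface epithelium, Krt5 was at 0 and only Krt10 had enough reads to be tested (-0.19, adjusted p = 0.355). The part of other cell types in these results was not tested, and in bulk samples fewer cells of a type and less RNA per cell cannot be told apart.

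The 5 members that were not tested had few reads. Krt7, a keratin of ducts and trophoblast, held 0, 0, 1 and 3 counts in turn in WT 1 to 4, against 6, 2, 13, 7 and 10 in DKO 1 to 5. Dsc2, the desmocollin partner of Dsg2, held 2, 2, 3 and 4 counts in turn in WT 1 to 4, against 3, 17, 8, 12 and 6 in DKO 1 to 5. Each overlapped between the groups by 1 library, DKO 2 for Krt7 and DKO 1 for Dsc2. In the edgeR fit with no filter on low counts both passed upward (adjusted p = 0.000258 and 0.00448), where 11.9% of all 24485 genes did so. Marveld3, a further MARVEL protein, had 7 to 16 counts in WT and 2 to 11 in the DKO-labelled libraries, and Krt19 had 4 to 6 and 0 to 4. Neither passed in that fit, nor did Cldn9 (adjusted p = 0.247, 0.215 and 0.566).

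Of 32 other genes of junctions and polarity, 28 were tested, with 8 higher and 8 lower (28.6% each way, near the 23.9% and 24% of all genes tested) and a median log2 fold change of -0.02. Among them Prkci, the atypical protein kinase C of the apical complex, rose (0.54, from 271 ± 22.5 to 393 ± 11.7 CPM), and its partner Pard3 fell (-0.62, from 119 ± 11.9 to 77.8 ± 6.04 CPM). Of the catenins that bind E-cadherin, Ctnna1 and Ctnnb1 rose by 0.27 and 0.24 on the log2 scale (edgeR adjusted p = 9.8e-06 and 3.0e-05). Ctnnd1, p120 catenin, fell by 0.36 (edgeR adjusted p = 3.1e-06). Cdh2, a further classical cadherin with 70 reads in WT and 154 in the DKO-labelled libraries, rose by 0.92 (edgeR adjusted p = 0.00325). Jam2 (0.06) did not pass. Of 30 further claudins and keratins, 4 had enough reads to be tested and 23 had at most 3 counts in every library. Krt17 fell (-1.30, edgeR adjusted p = 0.00108), and Cldn12 (0.17) and Krt10 did not pass.

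A further list held 18 epithelial genes, both regulators and the protease, protease inhibitor and trafficking genes St14, Prss8, Spint1, Spint2, Rab25 and Ap1m2. Of these, 6 of 15 tested rose and 5 fell, where 23.9% of all genes tested rose and 24% fell. As log2 fold changes, Tfap2c (1.97), Klf5 (1.27) and Grhl3 (1.02) rose. Tfap2a (-2.59), the zinc finger repressor of mesenchymal genes Ovol2 (-1.81) and the splicing factor Esrp1 (-1.77) fell. Elf3 (0.07), Spint2 (-0.18) and Grhl1 (-0.38, edgeR adjusted p = 0.186) did not pass. Grhl2 had too few reads to be tested, 90 in WT and 25 in the DKO-labelled libraries (3.30 ± 1.58 and 0.796 ± 0.484 CPM). Of 12 mesenchymal regulators and markers, 4 of 6 tested rose and 2 fell, against the same 23.9% and 24% of all genes. Snai1, a repressor of Cdh1 through E-boxes, fell from 7.53 ± 1.87 to 2.54 ± 0.72 CPM (log2 fold change -1.56, SE 0.23, edgeR adjusted p = 1.1e-06), and Zeb1, a repressor of the same kind, rose by 0.38 (edgeR adjusted p = 0.0126). Vim (1.19), Fn1 (0.44) and Tgfb2 (2.78) rose and Tcf4 (-0.18) fell.

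Within a group, the members varied by a median coefficient of variation of 13.2% over WT and 16.2% over the DKO-labelled libraries, for the 28 tested. Krt18 differed most in this respect, with 10% in WT, below the 12.9% that counting alone gives, and 49.4% in the DKO-labelled libraries against 15.2% from counting. Ocln reached 43.5% (28.6% from counting) and Evpl 54.6% (29.9%) in the DKO-labelled libraries. Cgn was steadier there than counting gives, at 5.30% against 13.0%.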

How the data were processed

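The 9 libraries were made from 600 ng of total RNA each with the forward QuantSeq kit of Lexogen, per the labels' protocols, which reads the 3' ends of polyadenylated transcripts and keeps the strand. The deposited table holds raw, whole-number exon read counts for each Ensembl gene. The submitters' processing notes name mm10, cutadapt, STAR, featureCounts and DESeq2. The labels and notes state no version, annotation release, strand setting or treatment of multi-mapped reads. GENCODE mouse release 21, on the same build, gave symbols and positions for 52403 of 52550 identifiers.

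The main test was the robust quasi-likelihood F test of edgeR 4.0.16 (R 4.3.3) after filterByExpr and TMM scaling, fitted to every library with genotype alone. Benjamini-Hochberg adjustment ran over all genes tested. An SE is the size of the fold change divided by the root of its F statistic. CPM values (mean ± SD) use TMM-scaled library sizes. The procedure was tested on simulated data. Over the 16 pairs of replicates, chi-square per degree of freedom was 2.22 to 4.98, so none looked like a library deposited in duplicate. Alternatives were no TMM, DESeq2 1.42.0, other filters, other scaling genes, a replicate block and leaving out libraries. Members and lists were chosen with earlier results of these data known. Every member is named. From each further list of genes, the rule took at most 6 that passed, by smallest adjusted p, and at most 2 that did not, by highest CPM. Ctnnb1, Cdh2, Grhl1 and Grhl2 are given outside that rule, and marker genes are given as checks.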

Additional observations from a re-analysis of the deposited data

How the results depend on the processing

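Of the 14 members that passed, 13 kept their direction and their side of the threshold in all of the 16 alternative fits that tested them, and Cldn4 did not. Of the 14 that did not pass, 8 passed in none. Members higher numbered 6 to 8 and members lower 7 to 8 when 1 library was left out, against 7 and 7. Over all genes, 2560 to 2849 were higher and 2661 to 2880 lower. With the filter of 5 CPM in 4 libraries, 21 members were tested and only 3 were lower (Cdh1, Cgn and Krt8), because the other 4 were not among the genes kept. Over all 9698 genes tested with that filter, 2468 were higher and 2475 lower. With DKO 4 and 5 left out together, chosen after the data were seen, 6 of 29 tested members were higher and 10 lower. Those added among the lower were Cldn3, Evpl and Lsr. Over all 12014 genes tested in that fit, 2449 were higher and 2555 lower. With the replicate block, 6 were higher and 9 lower (Cldn4 lost, Cldn3 and Krt18 added), with 2746 higher and 2784 lower over all genes. Same-numbered libraries correlated by only 0.010 to 0.070, though 3 of the 4 WT libraries correlated best with their own number. The numbers were not taken as pairs in the main fit, and whether they mark a shared batch was not tested. The fit with no filter gave far smaller p-values for well-measured genes (Cdh1 2.69e-112), and its calls for Krt7 and Dsc2 should be read with that. Members at the low end, such as Ppl and Nectin4, rest on so few counts that counting alone gives a variation of 26.7% to 34.1% between libraries.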
